A study of Equus caballus with 2 samples.

Results

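Prostaglandin synthesis and reception in cultured equine endometrial fibroblasts are described here by 9 genes, chosen by symbol: *PTGS1*, *PTGS2*, *PTGES*, *PTGES2*, *PTGIS*, *PTGER2*, *PTGER4*, *PTGFR* and *HPGD*. Of the 21426 genes listed in each library, 8 carried one of these symbols. No row carried the symbol *PTGER2*, so this receptor gene was not analysed here.

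Prostaglandins are short-lived lipid mediators made from arachidonic acid, which phospholipase A2 enzymes release from membranes. The cyclooxygenases convert it to prostaglandin H2, and terminal synthases turn that product into prostaglandin E2, prostacyclin or other prostaglandins, which act on G protein-coupled receptors and are inactivated by 15-hydroxyprostaglandin dehydrogenase. In the mare, as in other ungulates, endometrial prostaglandin F2α ends the life of the corpus luteum, and prostaglandin E2 takes part in uterine relaxation, inflammation and tissue repair.

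The cells came from the endometria of 4 mares at slaughter, all in the mid-luteal phase and with no more than mild fibrotic change. After growth in serum, third-passage cells on collagen-coated hydrogels were held for 24 h in medium with serum albumin in place of serum, either without addition (control) or with 10 ng/ml of human recombinant TGF-β1, a growth factor that promotes fibrosis. Cells of the 4 mares were pooled within each condition, and 1 droplet-based 3′ single cell library was sequenced per condition. Cells were not assigned to mares here, which needs the reads, so that each condition was 1 sample and no test between conditions was made. A difference between the conditions and a difference between the library preparations cannot be told apart.

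Cells were kept from 20000 unique molecular identifiers (UMIs) and 3500 genes upwards with under 4% mitochondrial UMIs, which left 3865 control cells and 4513 cells exposed to TGF-β1 (treated cells). Their median depth was 50313 and 43142 UMIs, and 2 barcodes of kept cells occurred in both libraries. All 9 fibroblast markers had a mean of at least 1 UMI per 1000000 UMIs (CPM), with a summed level of 21714 CPM in control and 21795 CPM in treated cells. Within this list the collagen genes were higher after TGF-β1, while *VIM* (4399 and 2240 CPM), *THY1* (216 and 87.5 CPM), *PDGFRA* (50.5 and 16.7 CPM) and *PDGFRB* (80.1 and 49.0 CPM) were lower. *DCN* was also lower (2098 and 1795 CPM), and *LUM* was close in both (551 and 564 CPM). Of 6 epithelial markers found, *EPCAM* had 1 and 3 UMIs, while *KRT8* (114 and 4.48 CPM) and *KRT7* (19.3 and 7.04 CPM) held most of a sum of 134 CPM in control and 12.3 CPM in treated cells. The 6 endothelial markers summed to 1.48 and 1.58 CPM, with 3 and 2 UMIs of *CDH5*. The 6 immune markers found summed to 43.0 and 43.4 CPM, nearly all of it *CD68* (42.6 and 43.1 CPM), with 1 and 0 UMIs of *PTPRC*. The 6 perivascular markers summed to 748 and 659 CPM, mostly *DES* (646 and 569 CPM), *RGS5* (51.7 and 61.1 CPM) and *MYH11* (42.9 and 25.3 CPM). The 9 cycling markers found summed to 53.6 and 30.4 CPM. The part of these markers in the results below was not tested.

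Levels are given as CPM over the kept cells, with the log2 ratio of treated over control cells and its exact 95% counting interval, which covers counting error only and not the spread between cells, mares or cultures. Shares of cells are given after each cell was thinned at random to 20000 UMIs, so that depth did not differ between the libraries, with exact 95% binomial intervals. No cell type that should lack these genes was identified, so the share of cells that free RNA alone would give was not measured.

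The cyclooxygenase genes differed in opposite directions. *PTGS1*, the cyclooxygenase that most tissues express constitutively, was detected at 2.67 CPM (562 UMIs) in control and 4.65 CPM (1021 UMIs) in treated cells. This was a log2 ratio of 0.80 (0.65 to 0.95), or 1.74-fold higher. *PTGS2*, the inducible cyclooxygenase, was detected at 89.9 CPM (18932 UMIs) in control and 65.6 CPM (14425 UMIs) in treated cells. Its log2 ratio was -0.45 (-0.49 to -0.42), 1.37-fold lower after TGF-β1.

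The share of cells with a UMI was compared next. At least 1 UMI of *PTGS1* was present in 4.55% (3.92% to 5.26%) of control and in 8.18% (7.39% to 9.01%) of treated cells, and the mean number of UMIs per positive cell was 1.27 in both libraries. So close to the lowest possible mean of 1, more positive cells and more message per cell cannot be told apart. For *PTGS2* both quantities were lower after TGF-β1: the share of cells was 51.1% (49.5% to 52.7%) in control and 42.1% (40.6% to 43.5%) in treated cells, and positive cells held a mean of 3.73 and 3.23 UMIs. Averaged over all possible thinnings instead of 1 random draw, the *PTGS2* share was 49.87% and 42.03%. Without thinning it was 63.6% and 55.8%.

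*PTGS2* was spread unevenly over cells. After thinning, 48.9% of control cells held no UMI of it, 16.97% held 1 UMI and 3.80% held 10 UMIs or more. In the TGF-β1 library these shares were 57.9%, 17.2% and 2.28%. The 5% of cells richest in *PTGS2* held 34.8% of its UMIs in control and 40.1% in treated cells, and single unthinned cells reached 81 and 94 UMIs. A small part of the cells therefore carried a large part of the *PTGS2* message in each library, and the cells without a UMI were more frequent after TGF-β1.

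**Figure D1:**
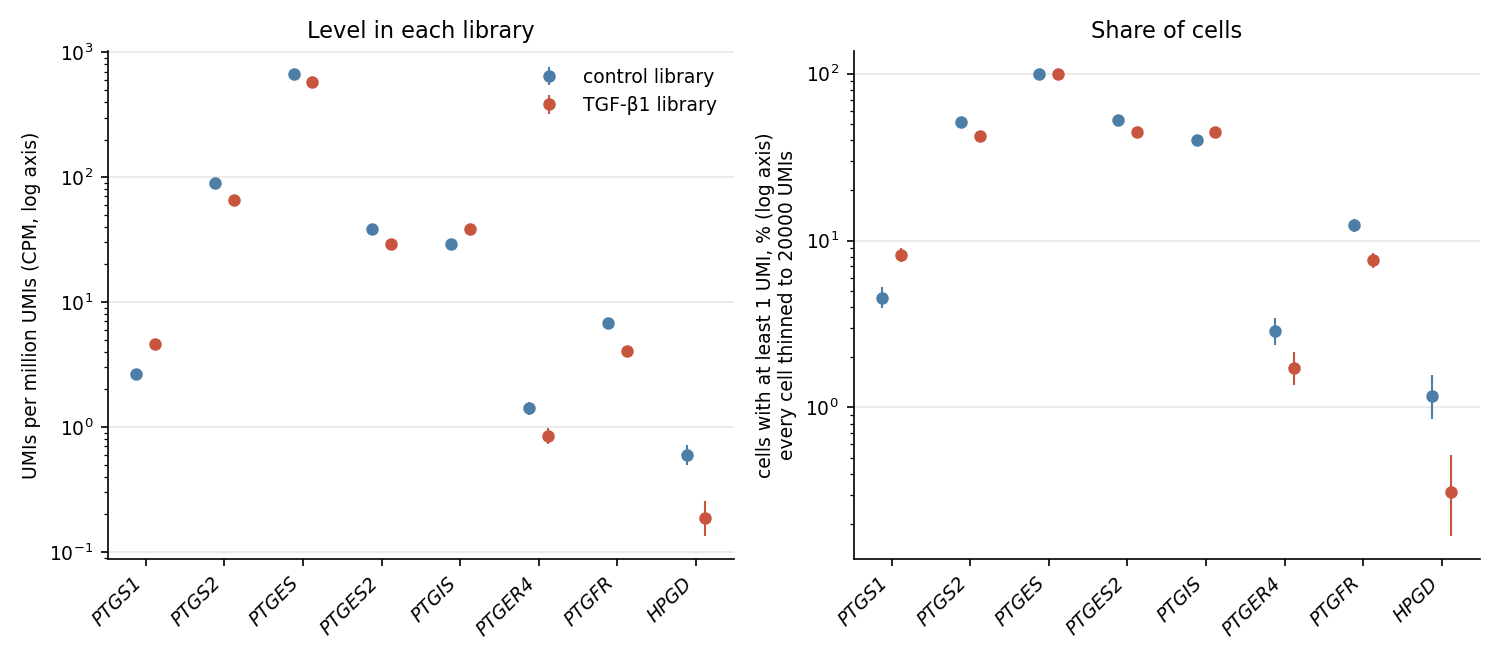
Level in CPM (left, log axis) and share of cells with at least 1 UMI after thinning to 20000 UMIs (right, log axis) of the 8 genes found, with the control library in blue, the TGF-β1 library in red and 95% counting intervals as bars. *PTGS1* and *PTGIS* sat higher in treated cells in both panels and the other genes lower, from *PTGES* at 668 and 577 CPM down to *HPGD* at 0.599 and 0.187 CPM.

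Among the terminal synthases, both prostaglandin E synthases were lower after TGF-β1 and prostacyclin synthase was higher. *PTGES*, the inducible microsomal prostaglandin E synthase that is known to act with *PTGS2*, was detected at 668 CPM (140580 UMIs) in control and 577 CPM (126831 UMIs) in treated cells. The log2 ratio was -0.21 (-0.22 to -0.20), 1.16-fold lower. Nearly every cell held the message, 99.5% of control and 99.3% of treated cells, so that the difference lay in the amount per cell: 66.3% (64.8% to 67.8%) of control cells and 57.2% (55.8% to 58.7%) of treated cells had 10 UMIs or more.

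*PTGES2*, a second, membrane-associated prostaglandin E synthase, was detected at 38.2 CPM (8039 UMIs) in control and 29.2 CPM (6426 UMIs) in treated cells, a log2 ratio of -0.39 (-0.43 to -0.34). The share of cells was 52.9% (51.3% to 54.5%) and 44.5% (43.0% to 46.0%). *PTGES2* UMIs were spread evenly compared with those of *PTGS2*: the variance over the mean of UMIs per thinned cell was 1.09 in the control library for *PTGES2* and 6.13 for *PTGS2*.

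*PTGIS*, which makes prostacyclin, a vasodilator that also restrains platelets, was detected at 29.3 CPM (6177 UMIs) in control and 38.5 CPM (8467 UMIs) in treated cells. Its log2 ratio was 0.39 (0.35 to 0.44), 1.31-fold higher. The share of cells was 40.3% (38.7% to 41.8%) in control and 44.8% (43.3% to 46.2%) in treated cells, and positive cells held a mean of 1.45 and 1.64 UMIs. Cells with 2 to 4 UMIs made up 12.1% of control and 16.5% of the treated cells. Without thinning, the *PTGIS* shares were 68.3% in the deeper control library and 67.96% in treated cells, so that the direction in the share of cells was seen only at equal depth, while the CPM ratio did not depend on thinning.

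**Figure D2:**
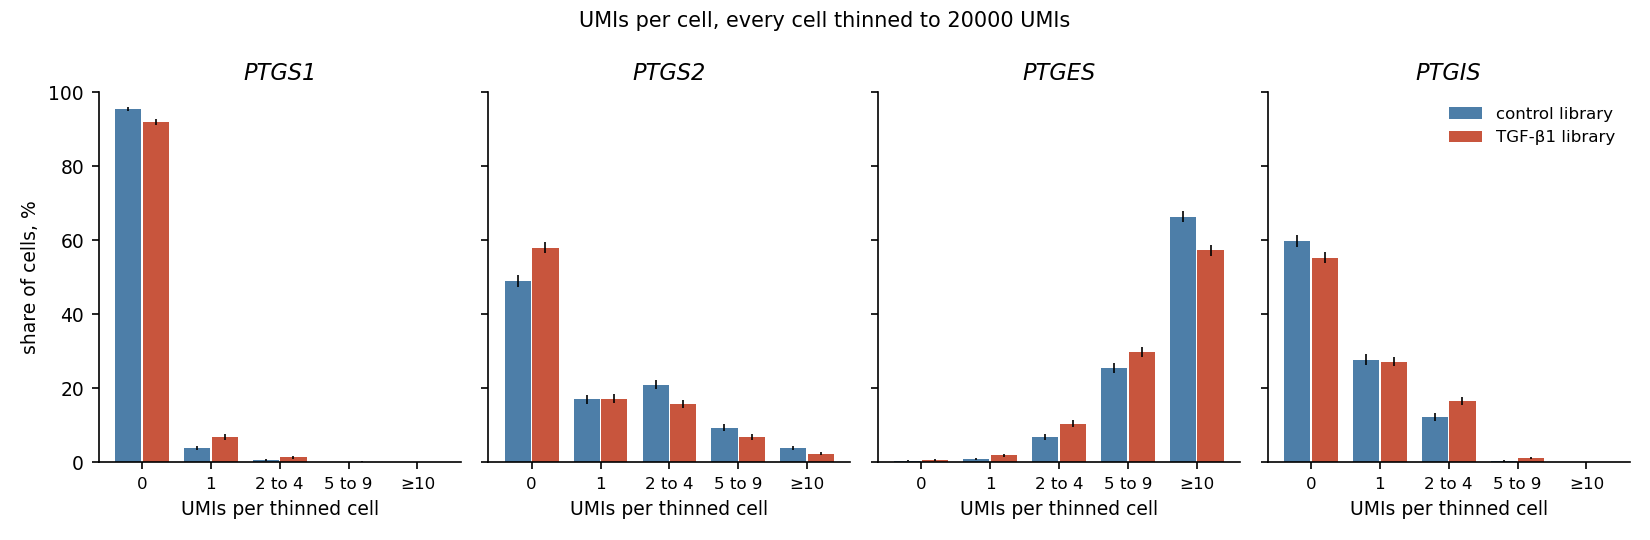
Share of cells (%) by the number of UMIs of *PTGS1*, *PTGS2*, *PTGES* and *PTGIS* per cell after thinning to 20000 UMIs, with the control library in blue, the TGF-β1 library in red and exact 95% binomial intervals as black bars. Treated cells more often held 0 UMIs of *PTGS2* (57.9% against 48.9%), less often 10 or more of *PTGES*, and more often 2 to 4 of *PTGIS*.

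The receptor genes were detected in few cells and were lower after TGF-β1. *PTGFR*, the receptor for prostaglandin F2α, was detected at 6.79 CPM (1430 UMIs) in control and 4.05 CPM (889 UMIs) in treated cells, a log2 ratio of -0.75 (-0.87 to -0.63). A UMI of it was present in 12.3% (11.3% to 13.4%) of control and in 7.62% (6.86% to 8.44%) of treated cells, with 1.10 and 1.06 UMIs per positive cell.

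*PTGER4*, a prostaglandin E2 receptor that raises cyclic AMP, was detected at 1.41 CPM (297 UMIs) in control and 0.851 CPM (187 UMIs) in treated cells. The log2 ratio was -0.73 (-1.0 to -0.46), and the share of cells was 2.87% (2.37% to 3.45%) and 1.73% (1.37% to 2.15%). Both receptor genes together occurred in 11 control cells (0.285%) and 5 treated cells (0.111%).

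*HPGD*, which encodes 15-hydroxyprostaglandin dehydrogenase and thereby the first step of prostaglandin inactivation, was the only gene of the 8 to differ by more than 2-fold, a limit that 6.64% (higher) and 7.07% (lower) of all genes with more than 3 UMIs passed. It was detected with 126 UMIs in control and 41 UMIs in treated cells, or 0.599 CPM (0.499 to 0.713) and 0.187 CPM (0.134 to 0.253). The log2 ratio was -1.68 (-2.23 to -1.16), 3.21-fold lower. Its UMIs came from 45 of 3865 control cells (1.16%) and 14 of 4513 treated cells (0.310%) after thinning. Among the epithelial markers, *KRT8* was found in 25.5% of control and 3.52% of treated cells, *KRT7* in 23.3% and 11.2%, *MUC1* in 1.27% and 0.997%, *CLDN4* in 0.181% and 0.399%, and *EPCAM* and *CDH1* each in 0.0259% and 0.0443%. *CLDN4* was thus higher after TGF-β1, with a log2 ratio of 1.30 (0.51 to 2.15). Their part in the *HPGD* difference was not tested.

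Set against all genes, most of the 8 genes were lower after TGF-β1, and mostly by modest amounts. Of 17191 genes with more than 3 UMIs in either library, 6.64% were more than 2-fold higher and 7.07% more than 2-fold lower after TGF-β1, and of the 8 genes 0 were higher and 1 was lower by that limit. At a 1.5-fold limit the background was 12.5% higher and 14.4% lower, with 1 of the 8 higher (*PTGS1*) and 3 of the 8 lower (*PTGER4*, *PTGFR* and *HPGD*). Irrespective of size, 51.4% of all genes and 6 of the 8 were lower, and 48.6% of all genes and 2 of the 8 were higher. Of the 7658 genes averaging 10 CPM or more, 2.3% were more than 2-fold higher and 2.13% more than 2-fold lower, and of the 4 genes described at that level (*PTGS2*, *PTGES*, *PTGES2* and *PTGIS*) 0 differed by that much. The median log2 ratio was -0.42 over the 8 genes and -0.015 over the 17191. The 8 genes are few and were chosen with earlier results of these data known. These counts therefore show no tendency of the genes as a set.

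Each difference was also set against all genes above a minimum level, which are not matched to the gene in level. Of 12116 genes averaging 1 CPM or more, 4.81% were higher by at least as much as *PTGS1*, 6.28% were lower by at least as much as *PTGFR* and 6.57% by at least as much as *PTGER4*. Of the 7658 genes averaging 10 CPM or more, 9.75% were lower by at least as much as *PTGS2*, 12.0% as much as *PTGES2* and 23.1% as much as *PTGES*, and 12.1% were higher by at least as much as *PTGIS*. Of the 17191 genes, 2.86% were lower by at least as much as *HPGD*.

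Co-detection in the same cell was examined next, since a prostaglandin is made where a cyclooxygenase and a terminal synthase meet. *PTGS2* and *PTGES* occurred together in 51.0% of control and 41.8% of treated cells, a difference of -9.19 percentage points, and of -7.89 points when averaged over all possible thinnings. As *PTGES* was found in nearly every cell, this share followed that of *PTGS2*. Of control cells 53.1% (51.5% to 54.6%), and of treated cells 46.0% (44.5% to 47.4%), held a cyclooxygenase gene of either kind.

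The combinations with the other synthases are given next. Each joint share, here and below, depends on the share of cells with each single gene. It was not set against the share that the single genes alone would give. A cyclooxygenase gene and *PTGES2* shared 27.8% (26.4% to 29.3%) of control and 19.3% (18.2% to 20.5%) of treated cells. With *PTGIS*, in contrast, the shares were 21.8% (20.5% to 23.1%) and 22.3% (21.1% to 23.5%), with overlapping intervals. Cells with *PTGES* and *PTGIS* but no cyclooxygenase UMI made up 18.3% (17.1% to 19.6%) of control and 22.2% (21.0% to 23.5%) of treated cells.

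Cells with both cyclooxygenase genes were scarce but more frequent after TGF-β1, at 2.59% (2.11% to 3.14%) of control and 4.25% (3.68% to 4.88%) of treated cells. A cyclooxygenase gene together with *PTGER4* or *PTGFR* was found in 7.74% (6.91% to 8.62%) and 4.19% (3.62% to 4.81%) of cells. A cell held UMIs of a mean of 2.65 of the 8 genes in control and 2.48 in treated cells, and the median was 3 and 2.

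Within each library, few pairs of genes stood apart in their joint detection. Of 28 pairs, the share of cells with the second gene had intervals that did not overlap between cells with and without the first gene for 1 pair in control and 4 pairs in treated cells. In the control library that pair was *PTGS2* and *PTGES*, where 99.8% of *PTGS2*-positive and 99.2% of *PTGS2*-negative cells held *PTGES*. This rested on 3 *PTGS2*-positive and 15 *PTGS2*-negative cells without *PTGES*. The same count over all pairs of genes was not made, so whether these pairs stand out among genes is not known.

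In the TGF-β1 library, *PTGS2* was found in 52.0% (46.8% to 57.2%) of *PTGS1*-positive and 41.2% (39.7% to 42.7%) of *PTGS1*-negative cells. *PTGIS* was found in 49.2% (46.9% to 51.5%) of *PTGS2*-positive and 41.6% (39.7% to 43.5%) of *PTGS2*-negative cells. *PTGES2* differed the other way, in 41.6% (39.3% to 43.8%) of *PTGS2*-positive and 46.6% (44.7% to 48.5%) of *PTGS2*-negative cells. The fourth pair, *PTGS1* and *HPGD*, rested on 5 cells with both genes. The same shares in the control library had overlapping intervals: 56.8% and 50.8% for *PTGS2* by *PTGS1*, 41.3% and 39.2% for *PTGIS* by *PTGS2*, and 52.3% and 53.5% for *PTGES2* by *PTGS2*. Whether these pairings differed between the conditions was not tested.

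Cells were then grouped by their own *PTGS2* UMIs after thinning, a grouping chosen after the values had been seen. There were 1890 control and 2615 treated cells with 0 UMIs, 1044 and 1159 with 1 to 2, 784 and 636 with 3 to 9, and 147 and 103 with 10 or more. *PLA2G4A*, the cytosolic phospholipase A2 that releases arachidonic acid, was higher in each step: 87.7, 123, 158 and 247 CPM in control and 74.7, 114, 163 and 250 CPM in treated cells. Cells rich in *PTGS2* were thus rich in *PLA2G4A* at nearly the same levels in both libraries, although the pooled level was 119 CPM in control and 103 CPM in treated cells.

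The terminal synthases followed *PTGS2* to different extents. *PTGES* was 649 CPM (641 to 657) in control cells with 0 *PTGS2* UMIs and 720 CPM (689 to 751) in those with 10 or more. The span was wider in treated cells, from 534 CPM (528 to 541) to 831 CPM (792 to 871). The cells with the most *PTGS2* were few, and the variance over the mean of *PTGES* UMIs per thinned cell was 4.03 in control and 4.12 in treated cells, so that the spread between cells was larger than the counting error the intervals cover. *PTGES2* went the other way in treated cells, from 32.1 CPM (30.6 to 33.7) to 17.5 CPM (12.2 to 24.2), while its control values of 39.3 CPM (37.3 to 41.4) and 36.1 CPM (29.5 to 43.6) had overlapping intervals.

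*PTGIS* was 27.5 CPM (25.8 to 29.2) and 35.4 CPM (28.9 to 42.9) at the ends of the range in the control library, and 33.0 CPM (31.5 to 34.6) and 47.1 CPM (38.2 to 57.4) in treated cells. *PTGS1* was 2.54 CPM (2.06 to 3.10) and 4.42 CPM (2.35 to 7.56) in the control library, with overlapping intervals, and 4.19 CPM (3.65 to 4.78) and 13.6 CPM (9.03 to 19.6) in treated cells. In the latter library, 20.4% of the cells with 10 or more *PTGS2* UMIs also held a UMI of *PTGS1*, against 6.77% of the cells with 0. *PTGFR* had overlapping intervals at both ends in each library.

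**Figure D3:**
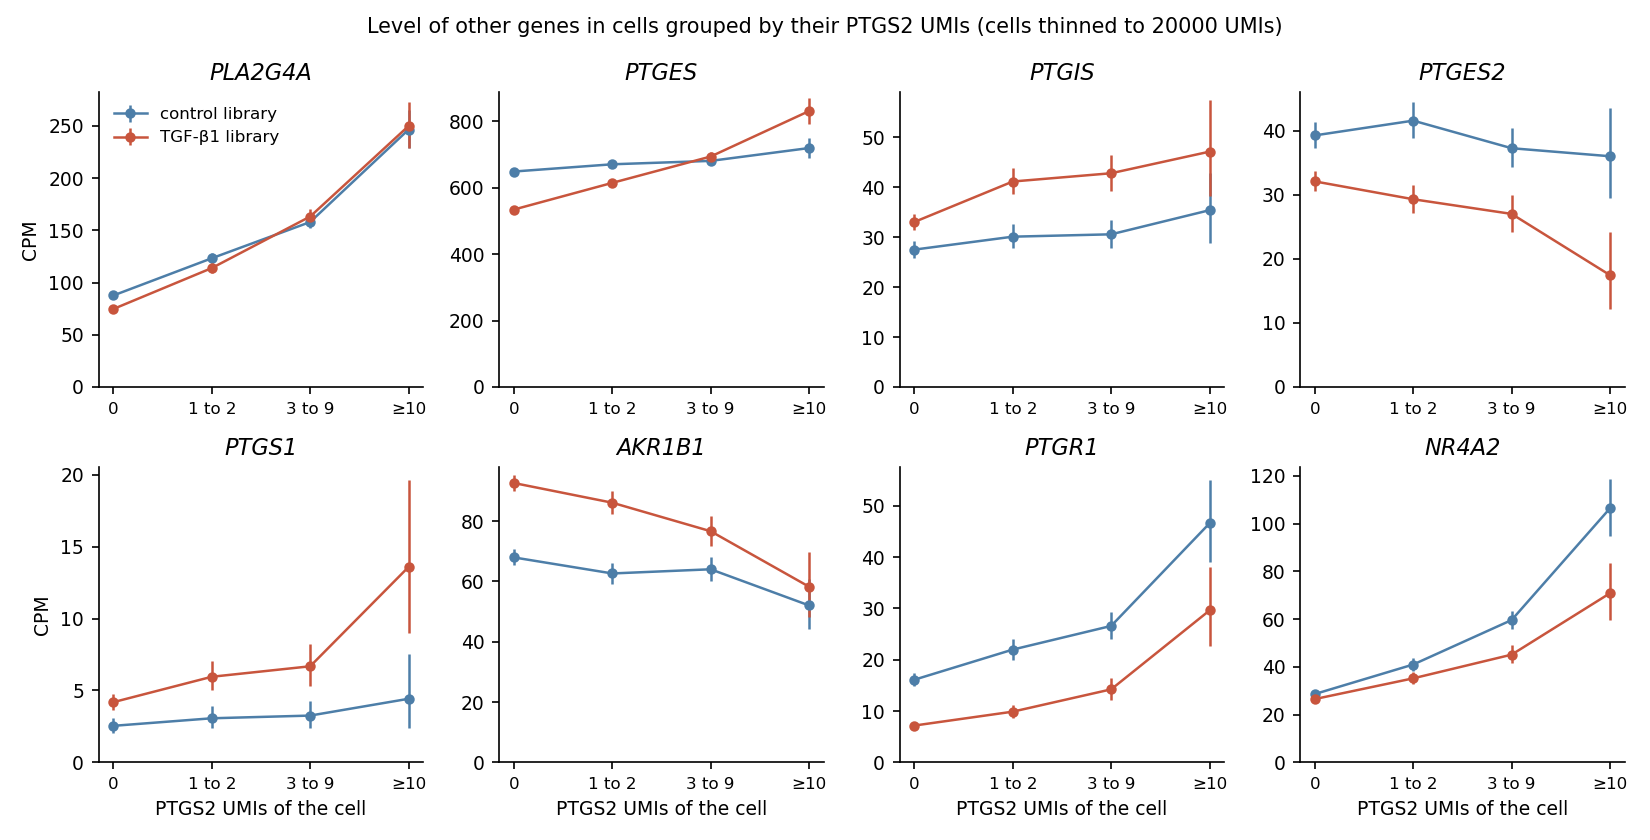
Level in CPM of 8 genes in cells grouped by their *PTGS2* UMIs after thinning to 20000 UMIs (0, 1 to 2, 3 to 9, 10 or more), with the control library in blue, the TGF-β1 library in red and 95% counting intervals as bars. *PLA2G4A* climbs from 87.7 to 247 CPM in the control and from 74.7 to 250 CPM in treated cells, whereas *PTGES2* is lowest, at 17.5 CPM, in the treated cells richest in *PTGS2*.

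Likeness over cells was described by the Pearson correlation of log-transformed levels within each library, over 3865 control and 4513 treated cells and 7176 candidate genes; the cells of a library share its preparation, and their depths differ. *PLA2G4A* was the gene most like *PTGS2*, with r = 0.38 in the control and 0.45 in treated cells. In the RefSeq annotation of the TB-T2T horse assembly *PLA2G4A* is also the nearest protein-coding gene on one side of *PTGS2*, with *PDC* on the other. The next were *IL11*, a cytokine of the interleukin-6 family (0.28 and 0.35), *IER3*, an immediate early gene (0.30 and 0.27), *RCAN1*, a calcineurin inhibitor (0.26 and 0.30), and *RNF24* (0.28 and 0.23). Of these 5 genes, *IL11*, *IER3* and *RCAN1* were higher after TGF-β1, unlike *PTGS2*: *IL11* was 150 CPM in the control and 1993 CPM in treated cells.

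The genes most like *PTGES* were *LDHA* (0.31 and 0.35), *TPI1* (0.31 and 0.36), *GAPDH* (0.30 and 0.36) and *ALDOA* (0.30 and 0.36), which encode enzymes of glycolysis and lactate formation, and *PRDX4* (0.30 and 0.35), a peroxiredoxin. The genes most like *PTGES2* were *RHOC*, *PHF23*, *UBB*, *CD81* and *SPON2*, and those most like *PTGIS* were *PTK2*, *NAV1*, *KLF9*, *RAI14* and *PPFIA1*. Their correlations were weak, at most 0.21 in either library. Between the genes themselves, *PTGES* and *PTGS2* had r = 0.05 in the control and 0.21 in treated cells, and *PTGIS* and *PTGS2* 0.06 and 0.13.

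Clustering of the cells of both libraries, with the 8 genes left out of the clustering genes, gave 8 clusters, numbered 0 to 7. Cluster 6 was cycling-like, with 9 of 9 cycling markers more than 2-fold above the other cells, and the others were left without a name. *PTGS2* was nevertheless among the leading genes of cluster 4, 2.29-fold above the other cells. Cluster 4 made up 14.4% of control and 10.9% of treated cells, and its *PTGS2* level was 186 CPM (181 to 191) in control and 112 CPM (108 to 116) in treated cells.

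The direction of the difference was the same in most clusters. The clusters are parts of the same libraries and not replicates, and such counts were not made over all genes. *PTGES2* was lower in 8 of 8 clusters, with log2 ratios of -0.55 to -0.24 and all intervals below 0, and in 11 of 12 clusters at a resolution of 0.8. *PTGFR* was lower in 8 of 8, with log2 ratios of -1.17 to -0.29 and 7 intervals below 0. *PTGS2* was lower in 7 of 8, with log2 ratios of -0.73 to 0.08 and 5 intervals below 0. In the cycling-like cluster it was 47.3 CPM (43.1 to 51.9) in the control and 49.9 CPM (45.6 to 54.5) in treated cells.

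*PTGS1* was higher in 7 of 8 clusters, with 6 intervals above 0. Its log2 ratio ranged from -0.09 (-0.82 to 0.62) in cluster 2 to 1.55 (0.89 to 2.23) in cluster 7, a cluster of 100 control and 53 treated cells in which it was 6.27 and 18.4 CPM. In cluster 1 it was 1.69 CPM (1.3 to 2.15) in the control and 4.59 CPM (4.03 to 5.20) in treated cells. *PTGS1* was thus at a similar low level in both libraries in cluster 2, at 0.998 CPM and 0.936 CPM, and more than 2-fold higher after TGF-β1 in 4 clusters.

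*PTGIS* was higher in 7 of 8 clusters, with 7 intervals above 0. Cluster 5 was the exception, with 21.3 CPM (18.1 to 24.9) in the control and 15.2 CPM (12.4 to 18.4) in treated cells, a log2 ratio of -0.49 (-0.86 to -0.12). This exception depended on the clustering: at a resolution of 0.3 *PTGIS* was higher in 6 of 6 clusters, and at 0.8 in 11 of 12 with 0 intervals below 0, whereas with the 8 genes allowed among the clustering genes it was again lower in 1 of 7 clusters, with a log2 ratio of -0.57 and an interval below 0. *PTGES* was lower in 6 of 8 clusters, with log2 ratios of -0.39 to 0.12. Cluster 7 had the only interval above 0, at 514 CPM in the control and 558 CPM in treated cells, a log2 ratio of 0.12 (0.025 to 0.21). In cluster 5, where *PTGES* was highest in both libraries, the interval of the ratio spanned 0: it was 784 CPM (764 to 804) in the control and 808 CPM (787 to 829) in treated cells. Cluster 5 was thus the richest in *PTGES* and the poorest in *PTGIS* in treated cells. In the control library its intervals overlapped those of cluster 0, at 773 CPM (765 to 782) of *PTGES* and 22.8 CPM (21.4 to 24.3) of *PTGIS*. Cluster 5 was also the cluster with most *PTGES2*, at 60.6 and 51.2 CPM.

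*PTGER4* was lower in 6 of 7 clusters with a ratio, with 2 intervals below 0, in clusters 3 and 4. *HPGD* was lower in 4 of 4 clusters with more than 3 UMIs in each library, with 2 intervals below 0, but with the 8 genes among the clustering genes it was lower in 4 and higher in 1 of 5 such clusters, where the log2 ratio was 0.25. In the control library 56 of its 126 UMIs lay in cluster 3, which held 612 of the 3865 cells, and in treated cells 24 of 41 UMIs did. Cluster 3 also had 95 of the 297 *PTGER4* UMIs of the control library. These counts by cluster rest on integration of the libraries: without it, 7 of 8 clusters held fewer than 30 cells of one library, and *PTGS2* was lower in 2 and *PTGS1* higher in 3 of the clusters with a ratio. In that clustering, 1 cluster of 9 control and 40 treated cells held 1 and 16 *HPGD* UMIs.

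**Figure D4:**
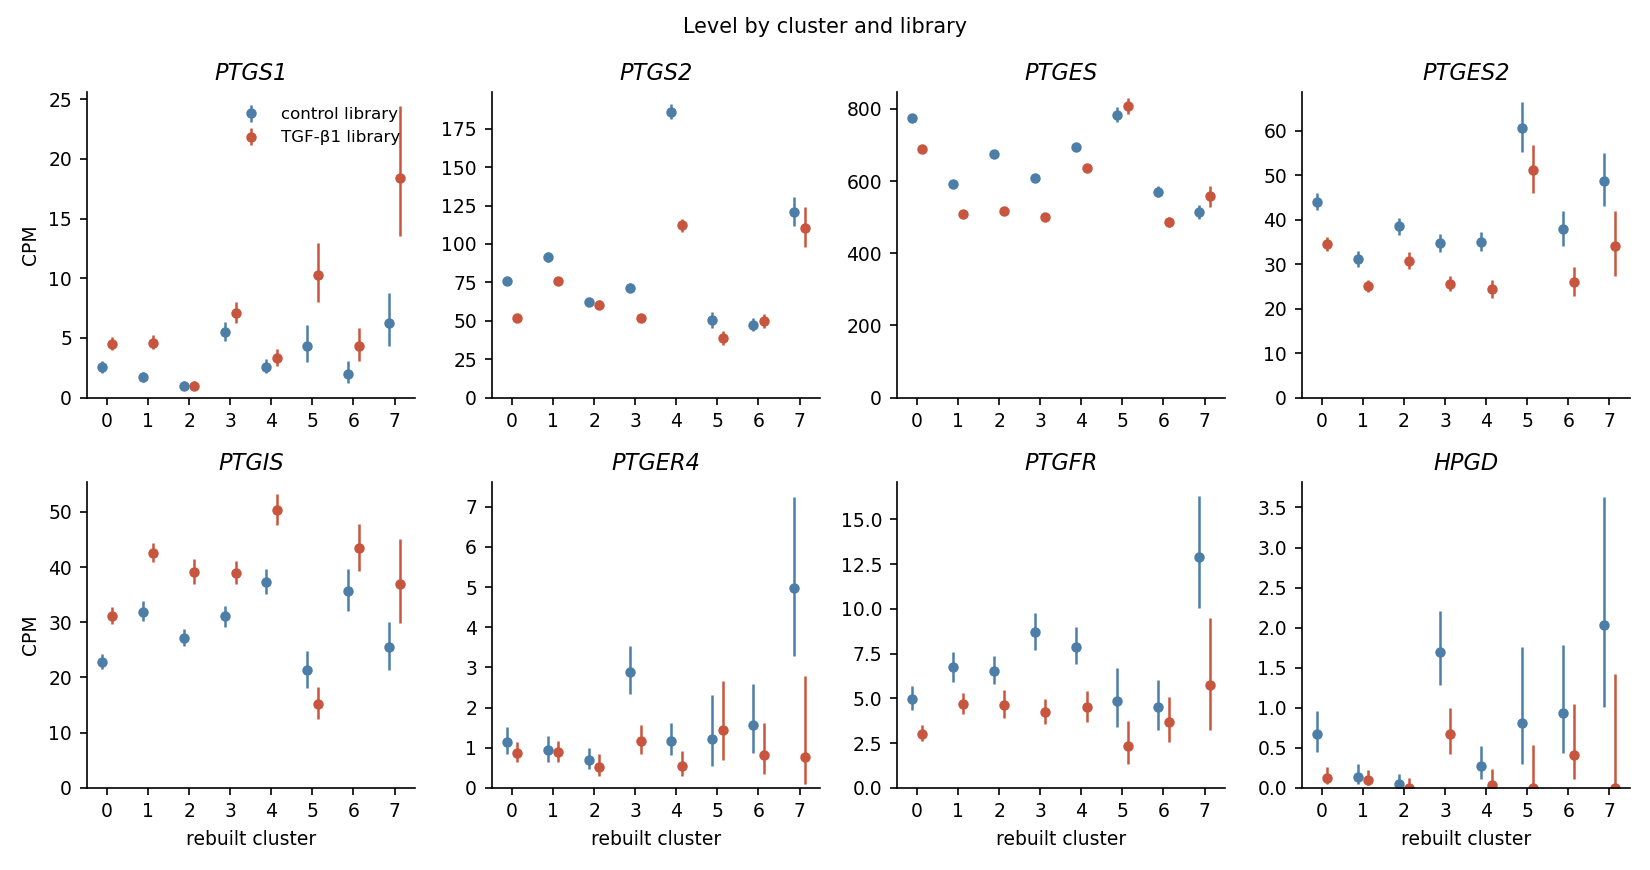
Level in CPM of the 8 genes in clusters 0 to 7, with the control library in blue, the TGF-β1 library in red and 95% counting intervals as bars. *PTGS2* stands out in cluster 4 (186 and 112 CPM), and at this resolution *PTGIS* is lower after TGF-β1 in cluster 5 alone and *PTGFR* and *PTGES2* are lower in all 8 clusters.

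The remaining genes of the pathway were taken from 7 lists with 48 symbols, of which 41 were found and 29 had a mean of at least 1 CPM. Of the symbols not found, *ZADH2* and *FAM213B* are older names of *PTGR3* and *PRXL2B*, which were found. Of all genes at that level, 3.45% were more than 2-fold higher and 3.46% more than 2-fold lower after TGF-β1. Of the 29, 1 was more than 2-fold higher (*PDE10A*) and 3 were more than 2-fold lower (*PTGR1*, *PTGDR* and *NR4A1*), and the median log2 ratio was -0.20, against -0.011 over the 12116 genes. Irrespective of size, 51.3% of the 12116 genes were lower and 48.7% higher, and 42.2% had an interval below 0 and 39.5% an interval above 0. Of the 29, 17 had an interval below 0 and 7 an interval above 0, so that an interval without 0 was common at this depth.

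Of 5 lipases that release arachidonic acid or its precursors, 4 had intervals below 0, as had 42.2% of all genes at that level. *PLA2G4A* had a log2 ratio of -0.21 (-0.24 to -0.18), and the less abundant *PLA2G4B*, *PLA2G5* and *PLA2G6* had -0.34, -0.78 and -0.64. *MGLL*, the monoacylglycerol lipase that hydrolyses an arachidonic acid ester, was the exception, at 22.6 CPM in the control and 29.6 CPM in treated cells, a log2 ratio of 0.39 (0.33 to 0.44).

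Of the other synthases, *PTGES3*, the cytosolic prostaglandin E synthase and co-chaperone, was 318 CPM in the control and 298 CPM in treated cells, a log2 ratio of -0.10 (-0.11 to -0.08). All 3 prostaglandin E synthases were thus lower after TGF-β1, each by less than 1.5-fold. *PRXL2B*, a prostaglandin F synthase, had a log2 ratio of -0.20 (-0.38 to -0.03), and *TBXAS1*, thromboxane synthase, 0.07 (-0.19 to 0.34). *AKR1B1*, an aldose reductase with prostaglandin F synthase activity, was higher, at 65.0 CPM in the control and 88.9 CPM in treated cells, a log2 ratio of 0.45 (0.42 to 0.48). Unlike *PLA2G4A*, *AKR1B1* was lower in cells rich in *PTGS2*: 68.0 CPM in control cells with 0 *PTGS2* UMIs and 52.0 CPM in those with 10 or more, and 92.6 and 58.3 CPM in treated cells.

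Of 5 breakdown and transport genes, 4 had an interval below 0, against 42.2% of all genes, and the median log2 ratio was -0.64. *PTGR1*, *PTGR2* and *PTGR3* encode reductases that act after *HPGD* on the 15-keto products. *PTGR1* was 19.0 CPM in the control and 8.79 CPM in treated cells, a log2 ratio of -1.12 (-1.19 to -1.04), and *PTGR2* and *PTGR3* had -0.50 and -0.64. *ABCC4*, an exporter of prostaglandins and cyclic AMP, had -0.75 (-0.83 to -0.67). *SLCO3A1*, a prostaglandin transporter, had -0.03 (-0.07 to 0.01), an interval that spans 0. *HPGD* and the 3 reductases were therefore all lower after TGF-β1, *HPGD* and *PTGR1* by more than 2-fold.

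Of 5 other receptor genes, 3 had an interval below 0 and 2 an interval above 0, against 42.2% and 39.5% of all genes. *PTGDR*, a prostaglandin D2 receptor, had a log2 ratio of -1.04 (-1.22 to -0.87), from 3.99 to 1.93 CPM. *PTGER1* was among the lower genes, but the origin of its reads is uncertain and its value is not described further. *PTGFRN*, a membrane protein that limits ligand binding to *PTGFR*, had -0.17 (-0.22 to -0.12). *TBXA2R*, the thromboxane receptor, had 0.27 (0.23 to 0.31), and *PPARD*, a nuclear receptor with prostacyclin among its proposed ligands, had 0.81 (0.73 to 0.88), from 9.99 to 17.5 CPM. The prostacyclin receptor gene *PTGIR* stayed under 1 CPM, with 34 UMIs in the control library.

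The competing lipid enzymes *ALOX12* and *LTA4H* had log2 ratios of 0.07 (-0.14 to 0.29) and 0.04 (-0.04 to 0.12), with both intervals spanning 0. Of 8 genes known to respond to cyclic AMP, the second messenger of *PTGER4*, 4 had a log2 ratio above 0 and 4 below. *NR4A1*, *NR4A2*, *NR4A3* and *SIK1* were lower, with log2 ratios of -1.21, -0.26, -0.73 and -0.32. *PDE4D* and *PDE10A*, which degrade cyclic nucleotides, were higher, with 0.61 and 1.4, while *CREM* had 0.11 (0.08 to 0.15) and *PDE4B* 0.01 (-0.10 to 0.13).

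All 29 genes were then set against the *PTGS2* UMIs of the cell. In both libraries, 8 of them were higher in cells with 10 or more *PTGS2* UMIs than in cells with 0, with intervals that did not overlap, and 1 was lower (*AKR1B1*), against 6.14% and 3.38% of the 12115 genes averaging 1 CPM or more. The 8 were *PLA2G4A*, *PTGR1*, *SLCO3A1*, *PTGDR*, *NR4A1*, *NR4A2*, *NR4A3* and *PDE4B*. Their variance over the mean of UMIs per thinned control cell ran from 1.51 (*SLCO3A1*) to 5.24 (*PTGR1*). The spread between cells was thus larger than the counting error that the intervals cover. *NR4A2* went from 28.6 to 106 CPM in control and from 26.5 to 70.9 CPM in treated cells, *NR4A1* from 73.7 to 135 CPM and from 35.1 to 53.4 CPM, and *NR4A3* from 11.2 to 26.9 CPM and from 8.45 to 16.0 CPM. *PTGR1* went from 16.1 to 46.6 CPM and from 7.17 to 29.6 CPM. *CREM* was 57.1 and 55.1 CPM in the control library, with overlapping intervals, but 61.3 CPM (59.2 to 63.5) and 77.7 CPM (66.1 to 90.7) in treated cells. *PDE4D* had overlapping intervals in both libraries, at 134 and 129 CPM and at 208 and 215 CPM.

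**Figure D5:**
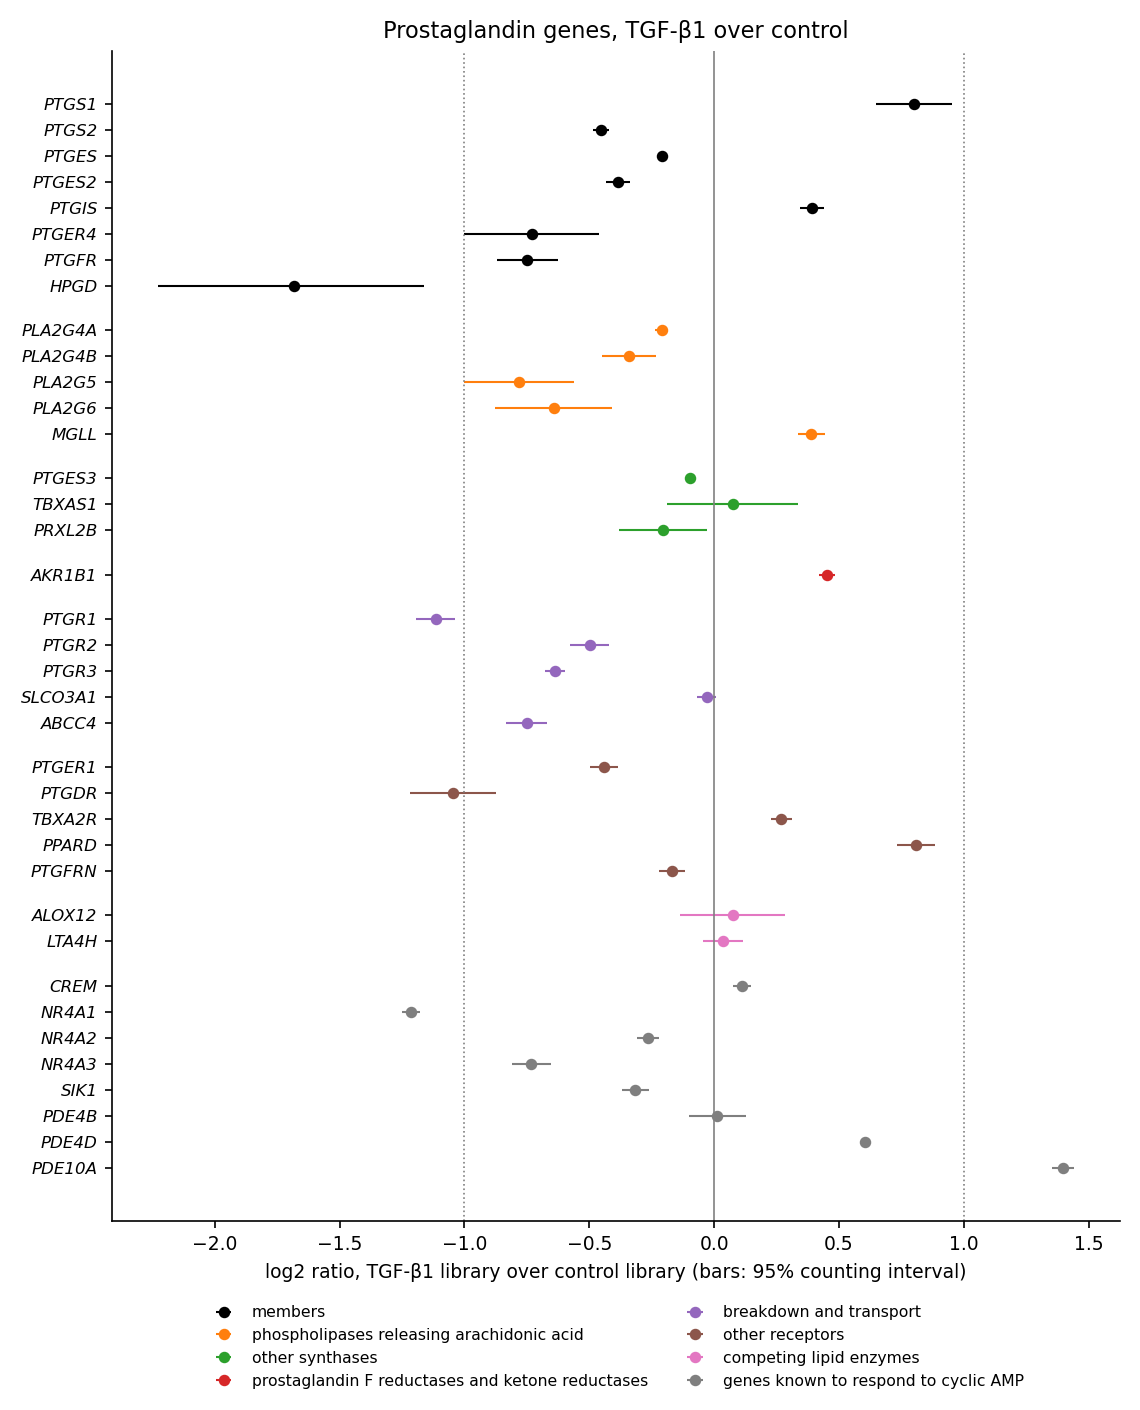
Log2 ratio of treated over control cells for the 8 genes (black) and the 29 other pathway genes averaging 1 CPM or more, coloured by list, with 95% counting intervals as bars, a solid line at 0 and dotted lines at 2-fold. *HPGD*, *PTGR1*, *PTGDR* and *NR4A1* lie left of the lower dotted line and *PDE10A* right of the upper one.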

How the data were processed

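For each library the authors deposited UMI counts per gene and cell barcode, whole numbers without normalization, made with Cell Ranger (version 7.1.0 in the methods, 8.0.1 in the file header) against EquCab3.0 with the Ensembl annotation. The authors separated the mares by genotype, removed doublets and tested with edgeR 4.2.2; assigning cells to mares and finding doublets by genotype need the reads and were not repeated here, so doublets remained and edgeR had no replicates to fit. Cells treated with MFGE8 were not analysed here. Counts were summed per library over the kept cells and divided by the library total (CPM). The log2 ratio had no pseudocount, its Clopper-Pearson interval came from the split of a gene's counts between the libraries, and no ratio was given with 3 or fewer counts in both libraries (in either, within clusters). Clusters came from Seurat 5.3.0 in R 4.3.3 (2000 variable genes, 30 dimensions, canonical correlation integration, resolution 0.5); other steps used Python 3.11.15 with scipy 1.17.1. Named were all members, all pathway genes averaging 1 CPM or more and, for members averaging 10 CPM or more, the 5 genes with the highest lower correlation of the 2 libraries. Members and lists were chosen with earlier results of these data known. On simulated counts of 7611 genes for TGF-β1 over control, 187 of 187 changed genes were found with 0 false calls, and 94.5% of intervals held the true ratio. These counts carried counting error only, and the changed genes averaged 10 CPM or more and differed by more than the 2-fold limit. The simulation thus checked the computation. It did not check the finding of smaller differences, rarer genes or the spread between cells, mares or cultures.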

Additional observations from a re-analysis of the deposited data

How the results depend on the processing

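No paired analysis was possible because cells were not assigned to mares here, so that each condition was 1 sample, and for the same reason no replicate could be left out. The log2 ratios of the 8 genes were recomputed under 9 alternatives each (cell filters, removal of cells above the 98th percentile of UMIs, scaling, mean of per-cell CPM, mitochondrial genes out of the total, cluster shares standardised, cycling-like cells left out). Of 72 values 70 stayed within the counting interval and 0 changed sign; *PTGS2* was -0.41 with standardised cluster shares and *PTGES* -0.19 by the mean of per-cell CPM. *HPGD* ranged from -1.75 to -1.40. With a minimum mean of 1 CPM, 418 genes were more than 2-fold higher and 419 lower of 12116, against 176 and 163 of 7658 at 10 CPM. With a 1.5-fold limit, 1 of the 8 genes was higher and 3 were lower. Of the 7658 genes averaging 10 CPM or more, 474 were higher and 496 lower by that limit, and 0 of the 4 members at that level were. Co-detection of *PTGS2* with *PTGES* differed by -7.02 points with a UMI minimum of 10000 and cells thinned to 10000 UMIs, and the average over all thinnings, -7.89 points, was added after seeing the data. At resolutions of 0.3 and 0.8 *PTGS2* was lower in 5 of 6 and 9 of 12 clusters, *PTGS1* higher in 5 of 6 and 11 of 12 and *PTGIS* higher in 6 of 6 and 11 of 12. Without integration, *PTGS2* was lower in 2 of 6, *PTGES* in 3 of 7, *PTGES2* in 3 of 6 and *PTGFR* in 2 of 3 clusters with a ratio, and *PTGS1* was higher in 3 of 5 and *PTGIS* in 3 of 6; *HPGD* had a ratio in 1 cluster, -1.11, and most of these clusters held few cells of one library. *PTGER4* and *HPGD* rested on few counts, with 484 and 167 UMIs in all.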
